A study of Homo sapiens with 6 samples.

Results

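Histone genes were examined in 6 RNA-seq libraries of SACC-83, an established human cell line derived from a salivary adenoid cystic carcinoma. They were taken as every row of the deposited expression table with an Ensembl identifier whose symbol begins with HIST1H to HIST4H, H2AF, H3F3 or H1F. This rule found 87 genes among 27328 loci, of which 19974 carried an Ensembl identifier. Of the 87, 71 belonged to the HIST clusters (55 in HIST1 on chromosome 6, 12 in HIST2 and 3 in HIST3 on chromosome 1, and 1 in HIST4 on chromosome 12), and 16 were replacement or other histones outside the clusters. All 87 matched GENCODE release 29 by identifier and symbol, and all were annotated as protein-coding.

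Of the libraries, 3 came from cells with an empty vector (labelled WT) and 3 from cells overexpressing circMYBL1, a circular RNA that takes its name from MYBL1, a gene for a MYB-family transcription factor. The cells of both groups were of this 1 line, and no source used here describes the expression construct, its promoter or the number of clones. The titles give the libraries of each group the replicate numbers 1, 2 and 3. The genotype labels of the overexpression libraries count up with that number (circMYBL1, circMYBL2, circMYBL3), whereas the titles mark all 3 as overexpression, so they were kept as replicates. No label ties a library to its own culture, so each p-value reflects library-to-library spread only, and that spread may be technical.

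Levels are FPKM as deposited by the authors, that is, fragment numbers scaled by gene length and by the library's mapped fragments. Summed FPKM lay between 371776 and 408826 per library. No whole-fragment steps were found in the low values, so read depth is unknown and counting error cannot be given. At the MYBL1 locus, FPKM was 9.04, 7.15 and 10.3 in vector replicates 1 to 3 and 359, 44.0 and 2025 in overexpression replicates 1 to 3. These values do not separate circular from linear transcripts. Among the 8 epithelial markers, KRT8 and KRT18 lay above 534 FPKM in every library, whereas KRT19 did not exceed 1.103 FPKM. KIT, AQP5 and AMY1A, markers of adenoid cystic tumours and of salivary acini, were listed at 0 throughout and MYB did not exceed 1.21 FPKM. Of the myoepithelial markers, TP63 lay between 11.7 and 33.7 FPKM and ACTA2 between 1.39 and 8.02. MYLK did not exceed 2.86 FPKM and SOX10 did not exceed 0.8135 FPKM.

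Histones package DNA into nucleosomes, each a core of H2A, H2B, H3 and H4 proteins, with linker histone H1 bound where DNA enters and leaves. Most core histone protein is made in S phase from the clustered genes. Their messenger RNAs have no introns and normally end in a conserved stem-loop in place of a poly(A) tail. SLBP binds that stem-loop and, with the U7 snRNP and the cleavage factor CPSF3, directs the cut just behind it. Replacement histones such as H3.3 and H2A.Z are encoded by single genes outside the clusters, are made throughout the cell cycle and have ordinary polyadenylated transcripts. Some clustered genes, among them HIST1H2BK, HIST1H2BD, HIST1H2AC and HIST1H1C, are also known to yield polyadenylated transcripts.

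The stem-loop was looked up in the annotated transcripts because it is the feature that sets the clustered genes apart. A stem of 6 paired bases and a loop of 4, 16 bases in all with the letters GGNNNTTNNNANNNCC on the transcript strand, was found in GENCODE 29 transcripts of 31 of the 71 HIST-cluster genes and of 1 of the 16 others, H2AFX. It lay behind the stop codon in each of these 32 genes, by 22 to 67 bases. Among all protein-coding genes, 120 (0.61%) had a transcript with a match. Below, the stem-loop is in capitals with 5 bases on either side, with 1 example for each form.
HIST1H2BG: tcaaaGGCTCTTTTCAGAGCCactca
HIST1H2BD: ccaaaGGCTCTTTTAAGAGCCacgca
HIST1H3E: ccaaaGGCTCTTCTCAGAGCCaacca
HIST1H4H: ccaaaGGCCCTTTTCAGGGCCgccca
HIST1H4I: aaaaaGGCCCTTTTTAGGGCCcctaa
H2AFX: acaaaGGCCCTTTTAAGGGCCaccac
On GRCh38 these capitals lie at chr6:26216218-26216233 on the minus strand (HIST1H2BG), chr6:26158587-26158602 on the plus strand (HIST1H2BD), chr6:26225596-26225611 on the plus strand (HIST1H3E), chr6:26285131-26285146 on the minus strand (HIST1H4H), chr6:27139654-27139669 on the plus strand (HIST1H4I) and chr11:119094898-119094913 on the minus strand (H2AFX). The form of HIST1H2BG was shared by 17 genes for H2A, H2B and H3, and that of HIST1H2BD by 5 genes for H2B and H3. The H4 genes had their own forms, that of HIST1H4H in 5 genes and that of HIST1H4I in 3. The forms of HIST1H3E and H2AFX each occurred in 1 gene of the 87.

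The filter on low values asked that 3 or more libraries reach an FPKM of 1. It was passed by 38 of the 87 genes (43.7%), and by 55.9% of all loci with an Ensembl identifier. These were 29 of the 71 HIST-cluster genes and 9 of the 16 others. Among those that passed, the median of the mean FPKM was 3.87 for the clusters and 70.02 for the replacement genes. In the clusters 41 genes had a mean under 1 and 7 were listed at 0 in every library. The genes passing were 2 of 6 for H1, 8 of 17 for H2A, 9 of 18 for H2B, 3 of 15 for H3 and 7 of 15 for H4. Of the HIST1 cluster 19 of 55 passed, of HIST2 9 of 12, of HIST3 1 of 3, and of HIST4 none. HIST1H3B, an H3 gene with a mean of 1.27 FPKM, stayed out because it reached 1 only in the 2 libraries numbered 2, with 2.15 and 2.10.

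The share that passed was listed by what the gene model shows of the stem-loop. Where a transcript ran more than 100 bases past the stem-loop, 15 of 22 HIST-cluster genes passed, and where the transcripts holding it ended within 100 bases of the stem-loop, 5 of 9 did. Where the models held no stem-loop, 9 of 40 passed, and 33 of those 40 had models that consist of the coding sequence alone. FPKM is scaled by the length of the model, so a level set against a coding-only model may not be on the same footing as the others. HIST1H2BK, with the highest cluster level, is such a case, with a model of 381 bases at chr6:27146418-27146798.

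**Figure D1:**
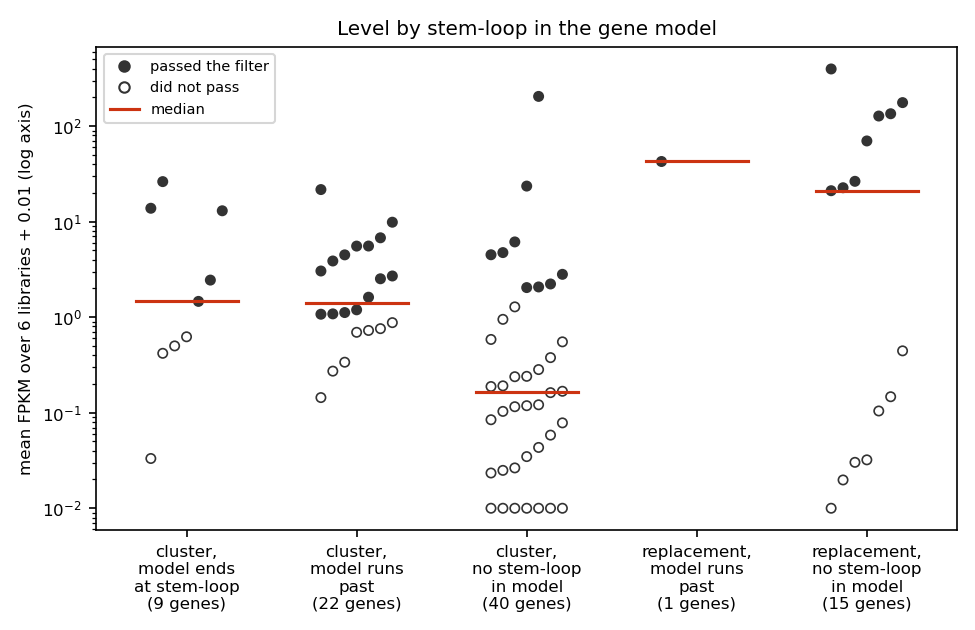
Mean FPKM over 6 libraries, plus 0.01, on a log axis for all 87 histone genes by class and by the stem-loop in the GENCODE 29 model. Filled points passed the filter, the red line is the median over all genes of a column and the sideways spread has no meaning. The medians were 1.45 and 1.40 FPKM for cluster genes with a stem-loop and 0.155 for those without one in the model.

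By mean FPKM, H2AFZ ranked first of the 87 genes, the clustered HIST1H2BK second, and the replacement genes H3F3B and H3F3A came next. H2AFZ, which encodes the H2A.Z found around active promoters, had 514, 229.96 and 411 FPKM in vector replicates 1 to 3 and 521, 294 and 412 in overexpression replicates 1 to 3. H3F3B and H3F3A both encode H3.3, with coding sequences 78.6% identical and no residue different. H3F3B had 196, 122 and 195 FPKM in the vector and 216, 146 and 183 in the overexpression libraries. H3F3A had 152, 105 and 118 against 163, 153 and 119. In H2AFZ and H3F3B both libraries numbered 2 were the lowest, and the groups overlapped in all 3 genes.

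H2AFY, encoding macroH2A1, a variant with a large extra domain, had 134, 119 and 129 FPKM in the vector and 141, 125 and 117 in the overexpression libraries. H2AFV, encoding a second H2A.Z that differs from the first at 3 residues, had 71.8, 67.7 and 70.01 against 72.9, 72.8 and 65.0. Both spanned little between libraries and overlapped between groups. H2AFX, whose product is phosphorylated around DNA breaks, had 51.8, 25.6 and 39.3 against 65.2, 31.1 and 46.2, lowest in the libraries numbered 2. H2AFJ, an H2A-like replacement gene, had 15.99, 28.6 and 17.8 against 21.04, 24.6 and 18.5, highest in those libraries. The 7 replacement genes that did not pass, including the germline genes H1FOO, H1FNT and H2AFB1 to H2AFB3, had means from 0 to 0.434 FPKM.

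HIST1H2BK, an H2B gene, led the clusters with 230.12, 156 and 209 FPKM in the vector and 246, 183 and 205 in the overexpression libraries. It alone held 49.0% to 54.6% of the summed cluster FPKM. HIST1H2BD, also an H2B gene, had 33.2, 19.98 and 27.9 against 27.3, 23.0 and 26.2, and HIST1H2AC, an H2A gene, 20.3, 26.7 and 15.6 against 24.2, 22.4 and 20.8. The groups overlapped in all 3. HIST1H2BD has a transcript that ends 39 bases behind the stem-loop and a spliced one without it, and gene-level FPKM does not separate them. The H2A genes HIST2H2AA3 and HIST2H2AA4 followed at means of 13.8 and 12.999 FPKM, then the H4 gene HIST1H4I at 9.86. The H2B genes HIST1H2BC and HIST2H2BE had means of 6.77 and 3.87 FPKM, and the H2A gene HIST3H2A had 5.55. The 3 H3 genes that passed, HIST1H3H, HIST2H3A and HIST2H3C, had means of only 1.07 to 1.19 FPKM, far below H3F3A and H3F3B.

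Summed over all 71 cluster genes, FPKM was 439, 319 and 382 in the vector libraries and 476, 352 and 390.3 in the overexpression libraries, which is 0.0859% to 0.116% of a library. Summed over the 16 others it was 1175, 747 and 1018 against 1262, 909 and 1011, or 0.201% to 0.309%. Cluster genes thus held 27.2% to 29.96% of all histone FPKM in every library. Both sums were lowest in the libraries numbered 2 of both groups. In RNA from bulk cells, less RNA per cell and fewer cells in S phase cannot be told apart.

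**Figure D2:**
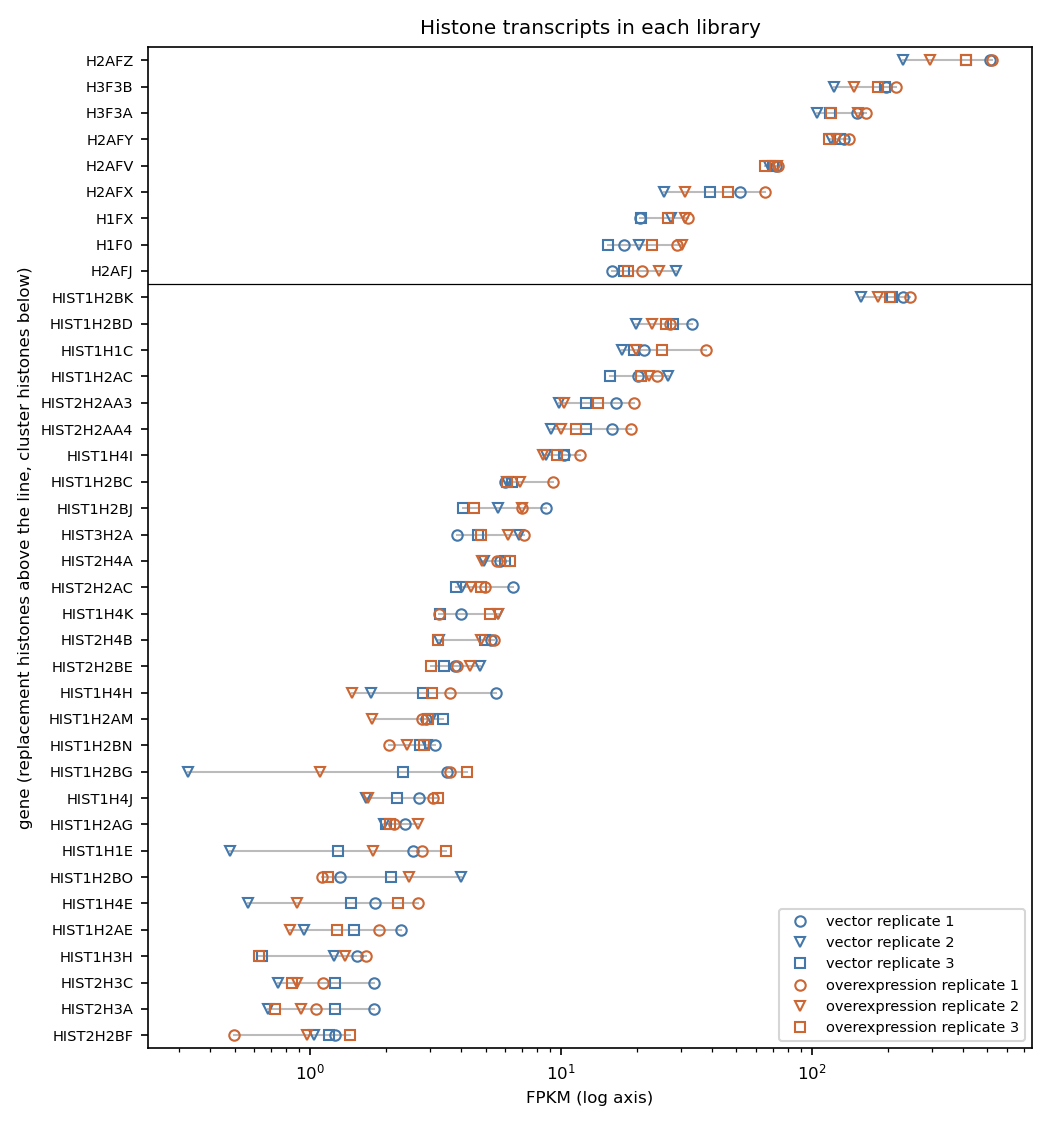
FPKM on a log axis for the 38 histone genes that passed the filter, with blue for vector and orange for overexpression, and circles, triangles and squares for replicate numbers 1, 2 and 3. Each grey line spans a gene's 6 libraries. H2AFZ, H3F3B, H2AFX, HIST1H2BG and HIST1H4E have both triangles at the low end, and HIST1H2BO and H2AFJ have them at the high end.

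Near-identical copies limit some of these levels. HIST2H2AA3 and HIST2H2AA4, HIST2H3A and HIST2H3C, HIST2H4A and HIST2H4B, and HIST1H4J and HIST1H4K share 100% of their coding sequence within each pair, so the split of fragments between them is uncertain. The 7 H4 genes that passed encode 1 protein through 5 different coding sequences. Their sum was 35.3, 26.5 and 31.0 FPKM in the vector and 35.5, 27.7 and 32.8 in the overexpression libraries, lowest in both libraries numbered 2. In addition, on opposite strands HIST2H4A overlaps HIST2H3C, HIST2H4B overlaps HIST2H3A, H3F3B overlaps UNK and H1FX overlaps its antisense gene H1FX-AS1. No source says if fragments were assigned by strand. HIST1H2AM overlaps HIST1H3J and HIST1H2BN overlaps HIST1H2AL on the same strand, where strand could not separate them.

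The first comparison asked which histone genes differed between circMYBL1 overexpression and vector, the search for targets of the circular RNA being the purpose given for the series. No histone gene passed an adjusted p of 0.05. The linker histone genes lay on 1 side: all 4 that passed the filter, of 10 in the rule, were higher in the overexpression library of every replicate number. The same held for 11 of the 38 histone genes that passed and for 16.5% of all loci tested. Linker genes were not planned as a group of their own, and core types were compared with the values known. The median log2 difference was 0.52 for H1. In the clusters it was 0.08 for H2A, -0.05 for H2B, -0.19 for H3 and 0.03 for H4. For replacement H2A and H3 genes it was 0.07 and 0.16. Differences here and below are of log2(FPKM + 1), which understates the change of low genes.

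H1F0 encodes H1.0, a linker histone that accumulates in slowly dividing and differentiated cells. It had 17.8, 20.5 and 15.4 FPKM in vector replicates 1 to 3 (17.9 ± 2.52, SD, n = 3) and 28.96, 30.2 and 23.1 in overexpression replicates 1 to 3 (27.4 ± 3.78). Every overexpression library lay above every vector library, by 1.53-fold in the means. The log2 difference was 0.59 with a standard error of 0.17 in the limma fit on group alone (unadjusted p = 0.0101, adjusted p = 1) and of 0.093 with replicate number as a block (adjusted p = 0.0813). The block call was made among genes with a mean of at least 5 FPKM (limma adjusted p = 0.0395) and without replicate 2 of both groups (0.00711), and over the alternatives its adjusted p ranged from 0.00711 to 0.814. Over all loci, the first of these fits called 19 higher and 4 lower of 8430, and the second 94 higher and 54 lower of 12064. The second leaves few libraries to estimate spread. Its standard error for H1F0 (0.15, against 0.093 with all libraries) was set by other loci and not by the spread of H1F0 itself.

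H1FX, another replacement linker histone, had 20.7, 27.3 and 20.9 FPKM in the vector and 31.9, 31.2 and 26.6 in the overexpression libraries. The groups overlapped through vector replicate 2, and the log2 difference was 0.37 (limma adjusted p = 0.459 with the block). HIST1H1C, the most abundant clustered H1 gene, had 21.3, 17.5 and 19.6 against 37.9, 19.9 and 25.3. Overexpression replicate 1 stood out, and the log2 difference of 0.44 fell to 0.20 without it (limma adjusted p = 0.447 with the block and all libraries, and 0.0128 without replicate 2 of both groups, within 0.0128 to 0.814 over the alternatives). HIST1H1E, a low clustered H1 gene, had 2.57, 0.478 and 1.29 against 2.79, 1.78 and 3.47, with overlapping groups and a log2 difference of 0.65 (0.445), which was 0.34 without vector replicate 2 and 0.97 without vector replicate 1. As for H1F0, the HIST1H1C fit without replicate 2 of both groups had few libraries to estimate spread. Its standard error (0.15, against 0.12 with all libraries) was set by other loci and not by the spread of HIST1H1C itself. With correction for GC content and length, the log2 difference was 0.19 in H1FX, 0.34 in HIST1H1C, 0.53 in HIST1H1E and 0.51 in H1F0. Summed over the 4 linker genes, FPKM was 62.4, 65.8 and 57.2 in the vector and 101.5, 83.1 and 78.5 in the overexpression libraries. Of the 8 epithelial markers, only EPCAM had every overexpression library above every vector library, narrowly, at 82.5 to 88.5 against 76.3 to 82.2 FPKM. No marker of the acinar, myoepithelial or other cell lists did.

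**Figure D3:**
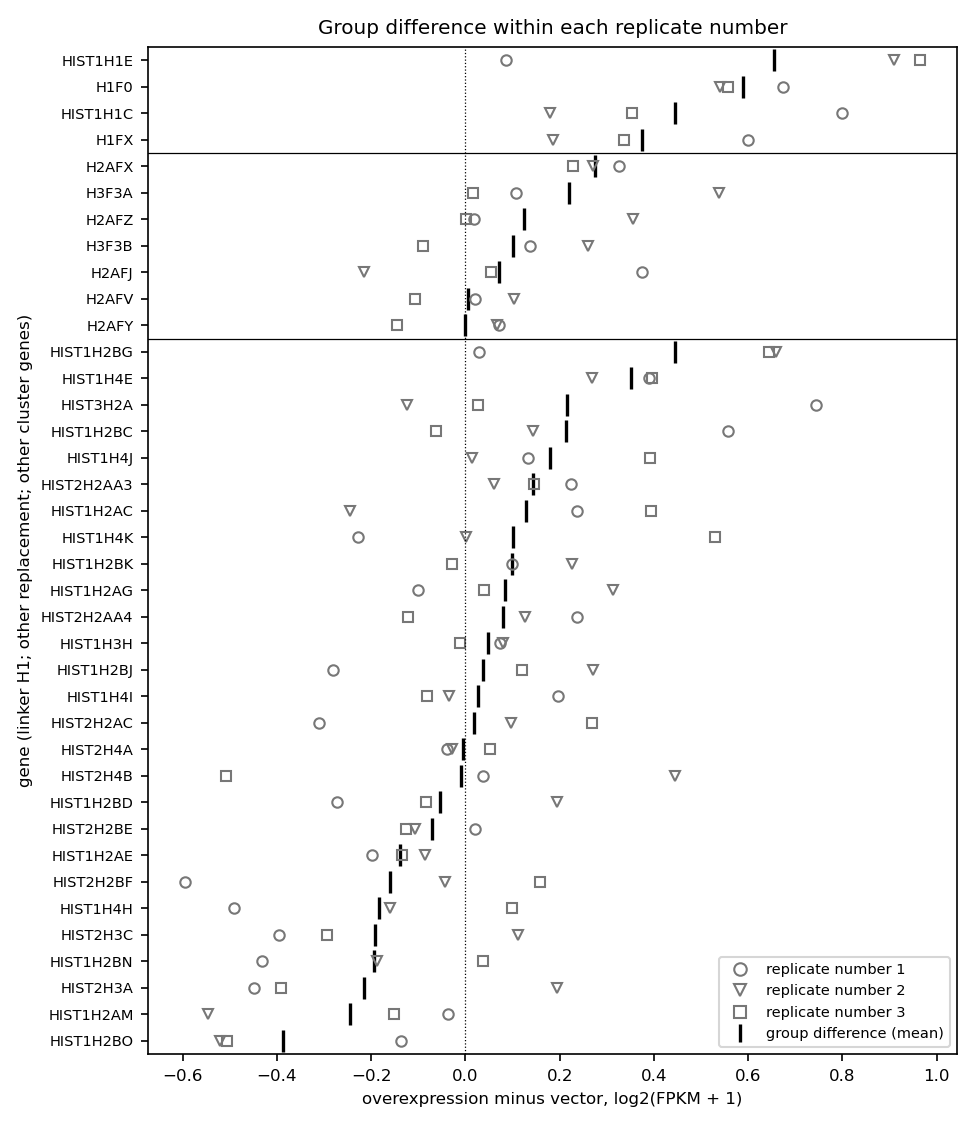
Overexpression minus vector in log2(FPKM + 1) for the 38 histone genes, with a grey symbol for each replicate number and a black bar for the mean of the 3. The linker H1 genes in the top block have all symbols to the right of 0, with means from 0.37 to 0.65, and most other genes have symbols on both sides.

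Without the block, 0 of the 38 genes were called, and over all 12064 loci tested none was either (0%). At an unadjusted p under 0.05 the same fit had 1 histone gene and 65 loci. With the block, 0 histone genes were called against 12 loci (0.0995%), and at an unadjusted p under 0.05 there were 7 higher and 1 lower histone genes against 580 higher and 288 lower loci. H1F0 was the only histone gene with all overexpression libraries above all vector libraries, which held for 2.5% of loci, and none had them all below, which held for 0.845%.

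Beside the linker genes, the core histones with an unadjusted p under 0.05 in the block fit were H2AFX, HIST1H2BG and HIST1H4E on the higher side and HIST1H2BO on the lower side. HIST1H2BG, an H2B gene, had 3.51, 0.327 and 2.34 FPKM in the vector and 3.60, 1.096 and 4.22 in the overexpression libraries. HIST1H4E, an H4 gene, had 1.82, 0.567 and 1.46 against 2.70, 0.888 and 2.23. HIST1H2BO, an H2B gene, had 1.32, 3.997 and 2.10 against 1.11, 2.48 and 1.18. Groups overlapped in each, the log2 differences were 0.28 for H2AFX, 0.44 for HIST1H2BG, 0.35 for HIST1H4E and -0.39 for HIST1H2BO, and the limma adjusted p with the block lay between 0.528 and 0.632. When 1 library was left out, the difference ranged from 0.011 to 0.54 in H2AFX, -0.072 to 0.85 in HIST1H2BG, 0.10 to 0.64 in HIST1H4E and -0.64 to -0.088 in HIST1H2BO, in each nearest to 0 or past it without vector replicate 2.

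The median log2 difference was 0.04 over the 29 cluster genes (17 higher, 12 lower), 0.13 over the 9 replacement genes (8 higher, 1 lower) and 0.03 over all loci. By replicate number, the cluster median was 0.02, 0.08 and 0.04 and the replacement median 0.14, 0.26 and 0.02. The sign of the cluster median was not stable: it was -0.03 after correction for GC content and length and between -0.06 and 0.13 when 1 library was left out.

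The second comparison was by replicate number, which the labels do not define. Most of the histone genes called here were lower in the libraries numbered 2, among them H2AFZ, H2AFX, H3F3B and HIST1H2BG. A limma F test over the numbers called 19 of the 38 (14 of 29 cluster and 5 of 9 replacement genes), against 46.5% of all loci. In the contrast of number 2 with the mean of numbers 1 and 3, 14 histone genes were lower, against 21% of loci, and 3 were higher, against 29.4%. Number 2 was chosen for the contrast because earlier results of these data set it apart, so the direction is a description. With values rescaled to TPM the split was 14 lower and 6 higher, against 17.8% and 34.5% of loci. With the GC and length correction it was 11 and 8 of 38 genes, against 27.7% and 27.1% of loci, so the share of histone genes that were lower was then near that of all loci.

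Among replacement genes, H2AFZ, H2AFX and H3F3B were lower in number 2. H2AFZ averaged 262 FPKM in the 2 libraries numbered 2 and 464 in the other 4, a log2 difference of -0.82 (SE 0.10, limma adjusted p = 1.9e-04). H2AFX averaged 28.4 against 50.6 (-0.80, SE 0.095, adjusted p = 1.3e-04) and H3F3B 134 against 198 (-0.56, SE 0.10, adjusted p = 0.0015). H2AFJ was higher, at 26.6 against 18.3 FPKM (0.52, SE 0.13, adjusted p = 0.0076). H3F3A, which encodes the same protein as H3F3B, averaged 129 against 138, and its log2 difference of -0.11 missed the threshold (adjusted p = 0.463). H2AFV, H2AFY, H1FX and H1F0 were not called either, with log2 differences from -0.09 to 0.25. H1F0 and H1FX passed the threshold as higher in number 2 with TPM, with the GC and length correction and without overexpression replicate 1, and H1F0 also with quantile normalization. H2AFY passed it as lower with the GC and length correction.

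In the clusters 11 genes were lower in number 2. HIST1H2BG was the gene with the largest difference, averaging 0.712 FPKM in number 2 and 3.42 in the others, and its log2 difference was -1.55 within the vector and -1.23 within the overexpression libraries (combined -1.39, SE 0.16, limma adjusted p = 1.3e-04). The H4 genes HIST1H4H (5.50, 1.75 and 2.81 FPKM in the vector, 3.62, 1.47 and 3.07 in the overexpression libraries), HIST1H4E and HIST1H4J were lower, with log2 differences of -0.83, -0.81 and -0.50. Of the H2A genes, HIST2H2AA3 (-0.57), HIST2H2AA4 (-0.55) and HIST1H2AE (-0.52) were lower. The linker genes HIST1H1E (-0.76) and HIST1H1C (-0.41) and the H2B genes HIST1H2BD (-0.40) and HIST1H2BK (-0.39) completed the list. The limma adjusted p of these ranged up to 0.0253.

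HIST1H2BO and HIST1H4K went the other way. HIST1H2BO averaged 3.24 FPKM in number 2 and 1.43 in the others (log2 difference 0.80, SE 0.15, limma adjusted p = 0.0016), and HIST1H4K 5.59 and 3.95 (0.43, SE 0.16, adjusted p = 0.0421). HIST1H4K and HIST1H4J have the same coding sequence and moved in opposite directions. Their sum was 6.72, 7.27 and 5.53 FPKM in the vector and 6.35, 7.296 and 8.44 in the overexpression libraries, with no separation of number 2. The pair HIST2H2AA3 and HIST2H2AA4 moved together, and its sum was 18.9 and 20.3 FPKM in number 2 and 25.1 to 38.6 in the other libraries. HIST1H2BJ, an H2B gene, was called by the F test with number 3 lowest in both groups (8.69, 5.60 and 4.06 FPKM against 6.97, 6.96 and 4.50). Further cluster genes passed for number 2 only under alternatives. HIST2H2BE (0.30, limma adjusted p = 0.0563 with all libraries) was higher with TPM, GC and length correction, and some others. HIST1H2AC, HIST3H2A, HIST1H3H, HIST1H3B and HIST3H3 were also higher under some. Lower under some were HIST1H4I, HIST1H2AM, HIST2H2AC, HIST2H4A, HIST2H4B, HIST1H3J and HIST1H4C.

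**Figure D4:**
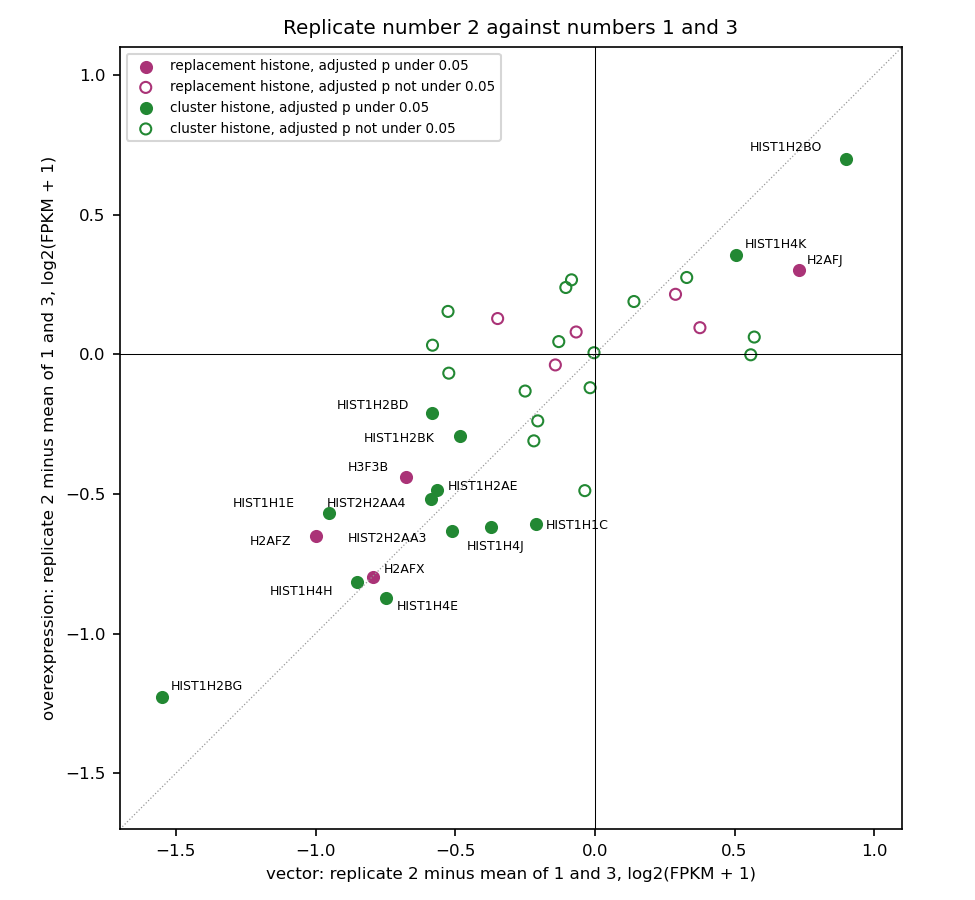
Replicate 2 minus the mean of replicates 1 and 3 in log2(FPKM + 1), in the vector libraries (horizontal) and the overexpression libraries (vertical), for the 38 histone genes. Filled points passed an adjusted p of 0.05 in the contrast over both groups. The 14 filled points at the lower left are negative in both groups and the 3 at the upper right positive in both.

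Both libraries numbered 2 lay below the other 4 in 14 histone genes (11 cluster and 3 replacement), against 25.7% of all loci, and above them in 4, against 35.9%. The median log2 difference of number 2 was -0.26 over the cluster genes, -0.09 over the replacement genes and 0.07 over all loci. Cluster genes had -0.22 within the vector and -0.13 within the overexpression libraries, and replacement genes -0.14 and 0.08. Over cluster genes with a stem-loop in the model the median was -0.27 (20 genes) and over those without -0.19 (9 genes). The call for number 2 was kept under every alternative that tested the gene in HIST1H2BG, HIST1H4H, HIST1H4E, HIST2H2AA3, HIST2H2AA4, H2AFZ, H2AFX and H3F3B on the lower side and in HIST1H2BO on the higher side. It ended without vector replicate 2 in HIST1H1E, HIST1H2AE, HIST1H2BD, HIST1H2BK, HIST1H4K and H2AFJ (limma adjusted p from 0.0566 to 0.409). Without overexpression replicate 2 it ended in HIST1H2AE, HIST1H4J, HIST1H1C and HIST1H4K (0.0533 to 0.378). The log2 difference was then -0.21 in HIST1H2BD and 0.30 in H2AFJ without vector replicate 2, and -0.21 in HIST1H1C without overexpression replicate 2. Removing vector replicate 3 ended it in HIST1H1C and HIST1H4K (0.0646 and 0.173, with a difference of 0.27 in HIST1H4K), overexpression replicate 1 in HIST1H4K (0.0844) and overexpression replicate 3 in HIST1H4J (0.0632). With no filter it ended in HIST1H1E, HIST1H4J, HIST1H1C, HIST1H2BD, HIST1H4K and H2AFJ, with the GC and length correction in the first 4 of these, with quantile normalization in HIST1H2BK and HIST1H4K, and with TMM factors, another scaling, in HIST1H4K (limma adjusted p from 0.053 to 0.27).

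The libraries numbered 2 also differed in other respects. They had 12577 and 12573 loci at FPKM of at least 1, against 11606 to 11958 in the others. Of the 6 myoepithelial and adenoid cystic markers, 5 were above the other 4 libraries in both (KIT was at 0), with a summed level of 37.3 to 45.8 FPKM against 14.8 to 20.6. Of the 8 epithelial markers, KRT5, KRT14 and CDH1 were above and KRT7 and KRT8 below, at 2061 to 2242 against 2169 to 2686 FPKM in sum. Of the 8 markers of other cells, PECAM1, VWF and COL1A1 were above, at 18.1 to 20.3 against 9.61 to 15.2 FPKM, with PTPRC and CD3E at 0. The acinar sum did not exceed 0.184 FPKM. The part of these differences in the histone values was not tested.

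Genes that make, process and place histones were counted in the same fits. Of 28 genes of histone mRNA 3′ end processing, export and decay, none was called between groups (0% of all loci). In number 2, 13 were lower, against 21% of all loci, and 6 were higher, against 29.4%. SLBP, the stem-loop binding protein, had 35.1, 26.3 and 29.98 FPKM in the vector and 38.1, 29.4 and 32.2 in the overexpression libraries and was lower in number 2 (-0.27, limma adjusted p = 0.0390). NPAT, the activator of clustered histone transcription, had 5.41, 6.501 and 6.27 against 4.53, 6.43 and 5.31, and its difference of 0.23 missed the threshold (adjusted p = 0.111). SRRT (-0.70) and SNRPE (-0.70) were lower, and the decay genes TUT4 (0.73) and XRN1 (0.76), a uridylyltransferase and an exonuclease, were higher. The list's median was -0.19, against 0.07 over all loci.

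Of 34 histone chaperones and deposition factors none was called between groups. In number 2, 12 were lower and 3 higher (21% and 29.4% of all loci), with a median of -0.12. IPO4, an importer of new H3 and H4, had 36.8, 8.46 and 29.8 FPKM in the vector and 29.5, 10.7 and 19.4 in the overexpression libraries (-1.47, limma adjusted p = 8.3e-05). INO80, an ATPase that acts on H2A.Z nucleosomes, was lower (-0.81), and UBN2, a subunit of the HIRA complex that deposits H3.3, was higher (1.26, with 3.41, 10.4 and 4.63 FPKM against 2.80, 10.4 and 4.48). Of 38 genes of S phase entry and DNA replication none was called between groups either. In number 2, 12 were lower (31.6%) and 4 higher (10.5%), against 21% and 29.4% of all loci, and the median was -0.06. CDC25A (-1.05), the phosphatase gene that opens S phase, and RRM2 (-0.80), a ribonucleotide reductase subunit, were lower, and the transcription factor gene E2F2 (0.99) was higher. The smallest block p-values for the group belonged to MBD3, SNRPG and XRN1, to ATRX, SRCAP and SET, and to RRM2, POLA2 and UHRF1 in the 3 lists, with log2 differences from -0.25 to 0.33 and limma adjusted p from 0.617 to 0.791.

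Promoters were read because H2B genes, and also replacement genes, moved in opposite directions with replicate number. Of the 9 replacement genes tested, 3 were lower in number 2 (H2AFZ, H2AFX and H3F3B), 1 was higher (H2AFJ) and 5 were not called. RefSeq gave 250 bases before the start for 66 cluster and 14 replacement genes (GRCh38.p14). Printed in capitals are the TATA box (TATAAA, gene strand), the CCAAT box (CCAAT or ATTGG, that is, both strands) and the octamer of H2B promoters (ATTTGCAT or ATGCAAAT, both strands). HIST1H2BG and HIST1H2BO were the cluster genes with the largest difference in each direction, and H2AFZ and H2AFX the replacement genes with the largest lower difference.
HIST1H2BG: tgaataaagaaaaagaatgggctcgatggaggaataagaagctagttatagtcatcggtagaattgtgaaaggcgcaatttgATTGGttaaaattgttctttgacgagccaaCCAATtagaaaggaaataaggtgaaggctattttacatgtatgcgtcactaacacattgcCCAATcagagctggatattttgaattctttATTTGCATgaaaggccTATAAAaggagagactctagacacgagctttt
HIST1H2BO: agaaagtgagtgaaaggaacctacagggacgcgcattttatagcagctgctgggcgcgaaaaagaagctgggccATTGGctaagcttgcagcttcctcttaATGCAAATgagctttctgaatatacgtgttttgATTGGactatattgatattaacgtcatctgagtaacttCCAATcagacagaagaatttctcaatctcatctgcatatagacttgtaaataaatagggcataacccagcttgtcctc
H2AFZ: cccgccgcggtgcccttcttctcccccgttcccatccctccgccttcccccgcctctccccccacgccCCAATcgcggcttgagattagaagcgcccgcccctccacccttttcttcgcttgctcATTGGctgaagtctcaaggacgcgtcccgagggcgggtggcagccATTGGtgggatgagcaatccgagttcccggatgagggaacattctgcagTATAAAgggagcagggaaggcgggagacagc
H2AFX: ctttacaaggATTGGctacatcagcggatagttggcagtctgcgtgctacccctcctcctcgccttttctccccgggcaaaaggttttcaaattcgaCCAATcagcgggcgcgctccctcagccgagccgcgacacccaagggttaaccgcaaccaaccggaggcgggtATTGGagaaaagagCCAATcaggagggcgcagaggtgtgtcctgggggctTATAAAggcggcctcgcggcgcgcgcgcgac
These windows are chr6:26216689-26216938 (minus strand, HIST1H2BG), chr6:27893175-27893424 (plus strand, HIST1H2BO), chr4:99950276-99950525 (minus strand, H2AFZ) and chr11:119095466-119095715 (minus strand, H2AFX). HIST1H2BG held 3 CCAAT boxes, an octamer 48 bases and a TATA box 32 bases before the start. HIST1H2BO also held 3 CCAAT boxes, with the octamer 149 bases before the start and no TATAAA in the window. H2AFZ and H2AFX both held a TATA box 31 bases before the start, with 3 and 4 CCAAT boxes and no octamer.

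Across the families, TATAAA was in 59.1% of cluster and 28.6% of replacement promoters, against 7.18% of 27305 RefSeq promoters of the same length. CCAAT boxes were in 84.8% and 78.6%, against 33.0%. The octamer was in 39.4% and 7.14%, against 1.66%, and by core type in 77.8% of H2B, 68.8% of H2A, 7.69% of H3 and no H1 or H4 promoter of the clusters. Windows of neighbouring genes on opposite strands can overlap, so the same octamer or CCAAT box can count for both. HIST1H2BG and HIST1H2AE share their octamer in this way, 48 bases before the start of HIST1H2BG and 192 before that of HIST1H2AE. The H2A and H2B shares are therefore not separate counts. H4 promoters stood apart for the CCAAT box, found in 23.1% of them and in every H1, H2A, H2B and H3 promoter of the clusters. A match describes these letters and is not a bound site.

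Many clustered genes face each other head to head, and 12 such neighbours, 11 of them an H2A and an H2B gene, had starts at most 357 bases apart. Both genes passed the filter in 5. HIST1H2BG and HIST1H2AE, with starts 283 bases apart, were both lower in number 2 (-1.39 and -0.52). HIST1H2BO and HIST1H2AM, with model starts 314 bases apart, were not alike: HIST1H2BO was higher (0.80), whereas HIST1H2AM had -0.26 and missed the threshold (limma adjusted p = 0.155). The models of HIST1H2BO and HIST1H2AM hold the coding sequence alone and those of HIST1H2BG and HIST1H2AE do not, so the 2 distances are not the same measure. HIST1H2AM also overlaps HIST1H3J on the same strand, which limits its level. In the other 3, HIST1H2BC with HIST1H2AC, HIST1H2BJ with HIST1H2AG and HIST2H2BE with HIST2H2AC, no gene was called in this contrast with all libraries and the filter as reported. Under some alternatives HIST2H2BE and HIST1H2AC passed as higher and HIST2H2AC as lower. The difference within a pair was not tested.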

How the data were processed

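The deposited table holds FPKM per locus, computed by the authors for 3 vector and 3 overexpression libraries. TRIzol extraction was followed by mRNA purification and fragmentation, per the labels' protocols, which do not name the selection. HISAT2 and GRCh38 are named per the submitters' processing notes, and for the counting tool, annotation and versions the entry is: not given in the sources used here. FPKM divides by gene length and library total, so abundant genes and the gene model used can shift a value.

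From these values, log2(FPKM + 1) of 12064 loci that reached FPKM 1 in 3 or more of the 6 libraries entered linear models (limma version 3.58.1, R version 4.3.3; empirical Bayes with trend, 2-sided, Benjamini-Hochberg over all loci, threshold 0.05). The terms were group, group with replicate number as a block, and, for replicate number, an F test and a contrast of number 2 with numbers 1 and 3. The script was tested on simulated data. The count-based test planned for raw counts was not run, since the file holds FPKM. As deviations from their group's mean, libraries of the same number had correlations across loci of 0.725, 0.881 and 0.529 for numbers 1, 2 and 3, and over the 38 histone genes of 0.520, 0.809 and 0.470. Crosses of numbers 1 and 3 gave 0.424 and 0.412 and the rest -0.818 to -0.552. The numbers were taken as pairs on these values, not on the labels. For numbers 1 and 3 they are a weak basis. Deviations within a group cancel out, so a difference of number 2 alone can give these signs. Number 3 with number 3 also lay little above the crosses of numbers 1 and 3. Exact permutation of 3 and 3 libraries has 0.1 as its smallest 2-sided p, so it was not used.

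The members and lists were chosen with earlier results of these data known. Genes were named by a rule: every replacement gene that passed the filter, cluster genes known to be polyadenylated in part, the 8 cluster genes of highest mean, up to 5 per direction with the smallest p in the block fit and in the number 2 contrast, up to 3 of each list per fit, SLBP, NPAT and MYBL1. The other genes called for number 2, also those called only under alternatives, were named after their values were seen. So were HIST1H3B, H1FX-AS1, UNK and the copies and neighbours. Positions and transcripts are from GENCODE 29 on GRCh38, promoters from RefSeq.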

Additional observations from a re-analysis of the deposited data

How the results depend on the processing

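Read depth is unknown from FPKM, so how far sampling limits the low cluster genes cannot be stated, and the 49 genes below the filter were not tested. With 3 libraries a group, 1 library can turn the sign of a small difference. The cause of the changes below was not tested, other than that filters change how many genes are tested.

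Pseudocounts of 0.1 and 0.5 and eBayes without a trend moved no count or class median by over 1.5 times or past the spread between libraries. The number of histone genes called between groups was 0 under every alternative without the replicate block. With the replicate block it was 0 with all libraries, 1 (H1F0) with a mean of at least 5 FPKM and 2 (H1F0 and HIST1H1C) without replicate 2 of both groups, where 94 higher and 54 lower loci were called against 11 and 1 with all libraries. The range over such omissions was 0 to 2, and each of them leaves few libraries to estimate spread. Without replicate 2 of both groups, the standard errors of H1F0 and HIST1H1C were set by other loci. With all libraries and the filter as reported, the block changed no call between groups. For replicate number, the F test called 8 of 79 genes tested with no filter and 11 of 20 with a mean of at least 5 FPKM. When 1 library was left out, it called from 12 (without vector replicate 2) to 21 of 38. Lower in number 2 were 8 of the 20 genes with a mean of at least 5 FPKM, against 26% of loci. Those higher were 1 with that filter (27% of loci), 6 with TPM (34.5%) and 8 with the GC and length correction (27.1%). They were 1 to 6 when 1 library was left out, where 18% to 32% of loci were higher.

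The cluster median between groups was 0.10 with a mean of at least 5 FPKM and -0.028 with the GC and length correction, and -0.063 (without vector replicate 2) to 0.13 (without vector replicate 1) when 1 library was left out. The replacement median ranged from 0.011 to 0.31 in those omissions. For number 2, the cluster median was -0.10 with no filter, -0.40 with quantile normalization and -0.11 with the GC and length correction, and -0.31 to -0.13 when 1 library was left out. The replacement median was 0.085 with quantile normalization, and -0.14 to 0.080 in the omissions, positive without vector replicate 2.

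Between groups, the log2 difference turned sign in H2AFY (0.060) and HIST1H2BK (-0.015) with the GC and length correction, and in H2AFV with TPM (-0.015), TMM factors (-0.022) and quantile normalization (-0.044). When 1 library was left out it ranged from -0.21 to 0.37 in H2AFZ, -0.12 to 0.25 in H3F3B, -0.075 to 0.059 in H2AFY, -0.021 to 0.060 in H2AFV, -0.086 to 0.31 in H2AFJ, -0.072 to 0.85 in HIST1H2BG and -0.063 to 0.21 in HIST1H2BK.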
